A study of Mus musculus with 8 samples.

Results

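The 40 genes described here encode the machinery of mitosis: cyclins and their kinase, spindle and kinetochore proteins, checkpoint kinases, condensins and the proteins that cut the dividing cell apart. They were chosen by name, as genes known for these roles, but with earlier results of these data known. All 40 were found among the 25913 genes of the deposited count table. RNA was taken from dissected olfactory epithelium of C57BL/6J mice at 40 weeks of age, as 4 libraries titled OMP_IGF1R (replicates 11, 12, 17 and 18) and 4 titled IGF1R_flfl (replicates 1, 2, 3 and 13). The study set deletion of Igf1r (the receptor for insulin-like growth factor 1) in olfactory sensory neurons against control mice. The labels contradict each other on which libraries are the knockout. By title OMP_IGF1R would be the knockout and IGF1R_flfl the control, while the genotype field calls the libraries titled OMP_IGF1R "OMPflfl (Ctrl)" and those titled IGF1R_flfl "OMPIGF1 (KO)". The groups are therefore called by their titles throughout, each fold change is OMP_IGF1R over IGF1R_flfl, and no direction is tied to a genotype. The labels name neither the line that drives the deletion nor the animals behind each library, and the spread on which the p-values rest may therefore be technical.

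Mature olfactory sensory neurons do not divide. They are replaced through life from basal stem cells, among which the globose basal cells divide and yield neuronal precursors, while horizontal basal cells are mostly a quiescent reserve. In a dividing cell, cyclin-dependent kinase 1 with its cyclins starts mitosis, condensins compact the chromosomes, kinetochores tie them to spindle microtubules, the checkpoint holds anaphase back until every kinetochore is attached, and the anaphase-promoting complex then has cyclin B and securin destroyed. RNA of many of these genes is made mostly late in the cell cycle.

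Total counts were 18802471 to 25585192 per OMP_IGF1R library and 23176815 to 27793375 per IGF1R_flfl library. Igf1r itself was lower in the libraries titled OMP_IGF1R, at 42.1 ± 6.32 CPM (counts per 1000000), against 66.5 ± 7.65 CPM in those titled IGF1R_flfl (SD, n = 4 each; edgeR adjusted p = 0.0117), a count that takes in exons outside any deleted part and other cell types. The tissue markers were present in all 8 libraries: the sum of 10 mature neuron markers was 7732 to 9446 CPM in OMP_IGF1R, against 13850 to 19470 CPM in IGF1R_flfl. Markers of other tissues stood apart in 1 library of each group. Skeletal muscle markers together reached 547.7 CPM in OMP_IGF1R 17 and 4.65 to 8.32 CPM elsewhere. Those of olfactory bulb and oligodendrocytes reached 2003 CPM in IGF1R_flfl 2 and 121 to 184 CPM elsewhere. Counts of the members without these 2 libraries are given below beside those with them.

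The mitosis genes were raised in OMP_IGF1R: 32 of the 40 members rose and 0 fell by edgeR's quasi-likelihood test (adjusted p under 0.05 over the 17381 genes tested), and 8 were not called. Across all genes tested 2.83% were called higher and 5.37% lower. All 40 members passed the filter on low counts, so none was left out of these numbers. DESeq2 (4.67% of all genes higher, 7.76% lower) and limma voom (3.67% and 6.97%) each called 34 members higher and 0 lower. At an unadjusted p under 0.05 in edgeR there were 38 higher and 0 lower. The share of all genes at that unadjusted threshold was not counted, here or for the lists below, so these numbers have no background beside them. The median log2 fold change of the members was 0.73, a ratio of 1.66, beside a median of -0.01 over all genes tested. Values of the groups did not overlap for 38 members, each with the OMP_IGF1R libraries above, where 6.57% of all genes tested had that pattern. The members that overlapped were Foxm1 and Anln. Changes were of modest size: 3 members, Ube2c, Aurkb and Ttk, had an estimate of 2-fold or more, and that of Ube2c, the largest, was not called. CPM are shares of a library, so a rise is relative to the RNA of all other cells. In bulk tissue, more dividing cells, less RNA from other cells and more RNA of these genes per dividing cell cannot be told apart.

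**Figure D1:**
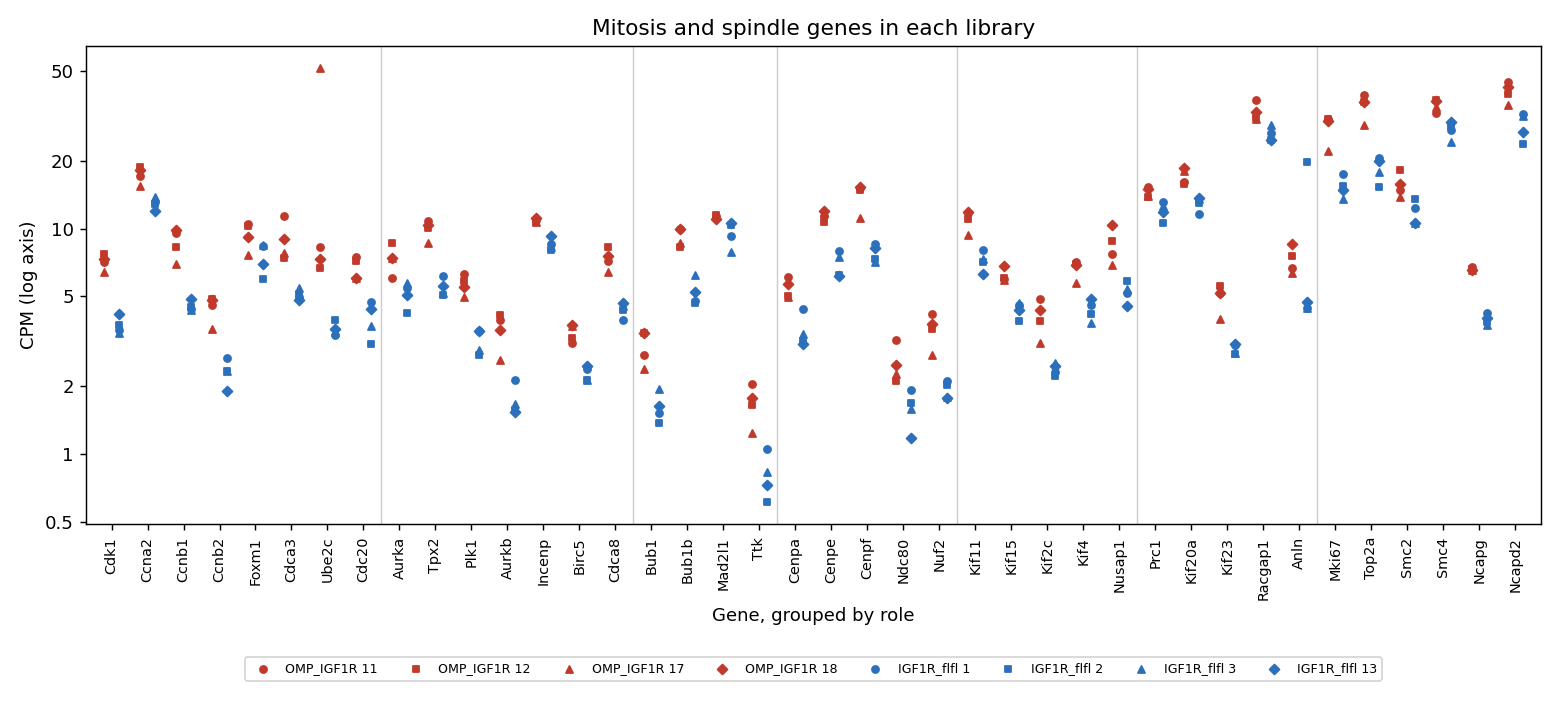
CPM of each of the 40 members in every library (log axis), grouped by role in the order of the text, with OMP_IGF1R in red left of IGF1R_flfl in blue and 1 symbol per replicate. The red points stand above the blue ones for 38 members, with OMP_IGF1R 17 far above the others for Ube2c (51.8 CPM) and IGF1R_flfl 2 for Anln (19.7 CPM).

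**Figure D2:**
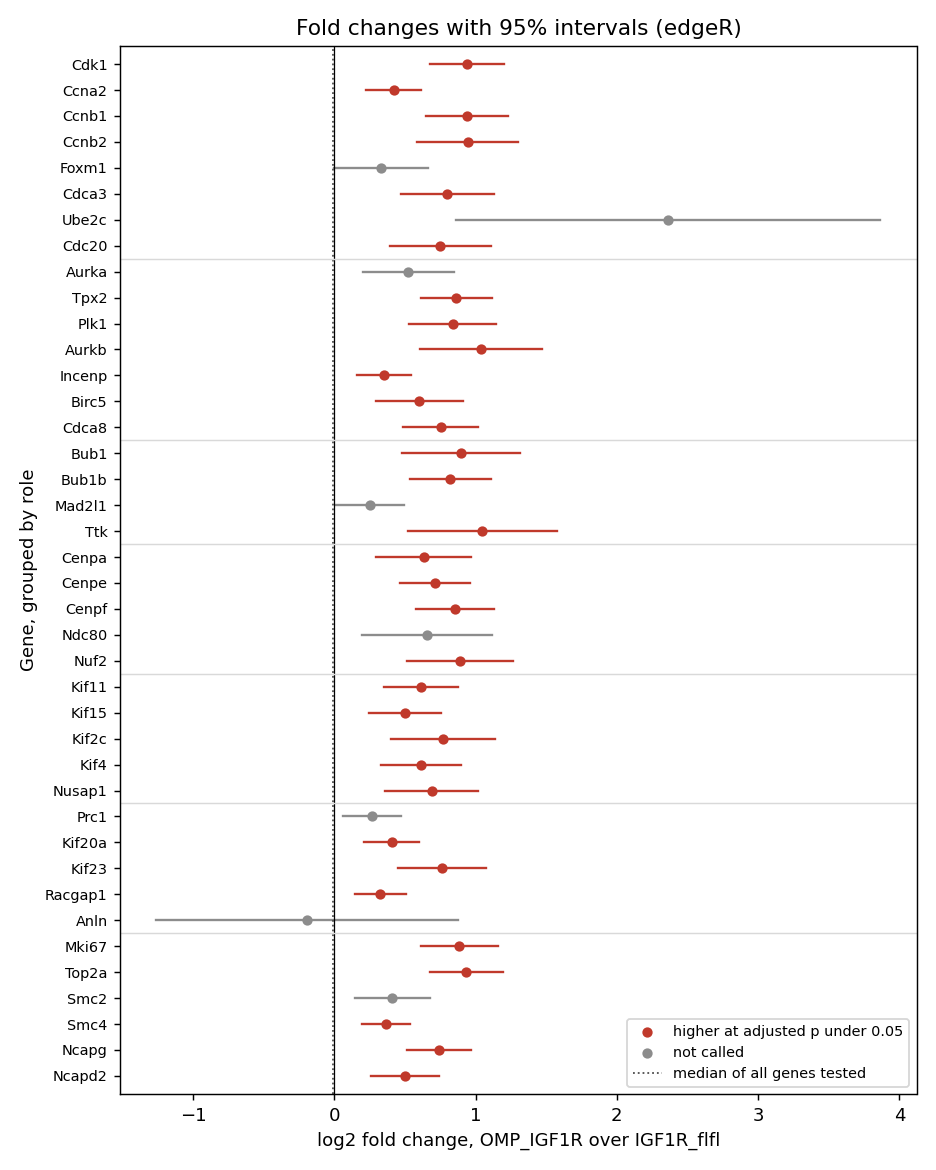
Log2 fold change of each member, OMP_IGF1R over IGF1R_flfl, with its 95% interval from edgeR. Members called higher are red, those not called grey, and the dotted line is the median of all genes tested (-0.01); the widest intervals are those of Ube2c (0.86 to 3.87) and Anln (-1.26 to 0.87).

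Many promoters of these genes hold the same short sequence elements, and 4 are shown so that the elements can be seen in place. They are from the members with the smallest p among those with both motifs, each running from 250 bases before to 50 bases after the RefSeq start (GRCm38.p6): Cdk1 at chr10:69352863-69353162 (minus strand), Top2a at chr11:99024140-99024439 (minus strand), Mki67 at chr7:135716330-135716629 (minus strand) and Ncapg at chr5:45669675-45669974 (plus strand). Capitals mark CCAAT, the CCAAT box bound by the factor NF-Y, and TTTGAA or TTCGAA, the letters of the cell cycle genes homology region through which the MuvB complexes act, on either strand.
Cdk1: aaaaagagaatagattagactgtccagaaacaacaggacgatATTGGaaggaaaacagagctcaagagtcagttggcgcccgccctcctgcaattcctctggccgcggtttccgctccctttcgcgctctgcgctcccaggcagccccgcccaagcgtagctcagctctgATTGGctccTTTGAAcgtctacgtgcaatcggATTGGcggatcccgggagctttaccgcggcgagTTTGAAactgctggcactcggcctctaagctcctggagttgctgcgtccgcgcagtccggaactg
Top2a: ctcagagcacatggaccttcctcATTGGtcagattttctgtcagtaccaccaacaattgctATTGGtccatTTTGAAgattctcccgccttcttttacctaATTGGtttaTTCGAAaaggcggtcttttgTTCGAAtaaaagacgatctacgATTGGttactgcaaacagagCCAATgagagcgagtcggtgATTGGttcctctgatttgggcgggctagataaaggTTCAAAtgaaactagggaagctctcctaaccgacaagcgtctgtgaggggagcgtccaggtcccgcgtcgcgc
Mki67: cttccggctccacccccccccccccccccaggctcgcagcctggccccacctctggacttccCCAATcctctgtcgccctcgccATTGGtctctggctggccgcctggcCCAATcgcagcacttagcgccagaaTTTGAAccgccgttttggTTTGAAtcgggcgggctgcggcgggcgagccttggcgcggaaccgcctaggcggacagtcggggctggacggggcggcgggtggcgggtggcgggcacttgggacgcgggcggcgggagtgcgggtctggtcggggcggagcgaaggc
Ncapg: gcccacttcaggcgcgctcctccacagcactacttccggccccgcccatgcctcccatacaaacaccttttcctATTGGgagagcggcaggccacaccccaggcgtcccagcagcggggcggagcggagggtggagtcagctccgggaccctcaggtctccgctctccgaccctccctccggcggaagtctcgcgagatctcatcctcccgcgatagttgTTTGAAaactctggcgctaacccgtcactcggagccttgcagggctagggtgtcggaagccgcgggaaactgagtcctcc
In Cdk1 the copy of TTTGAA nearest to the start begins 15 bases before it and the nearest CCAAT 48 bases before it, and in Ncapg they begin 30 and 176 bases before it. Top2a held 6 copies of CCAAT and 4 of the homology letters, and Mki67 held 3 and 2. RefSeq windows were at hand for 33 of the 40 members, 34 windows in all, of which a pair for Prc1 overlap. CCAAT was in 76.5% of the member windows and in 37.4% of the 15010 windows of other tested genes, the homology letters were in 82.4% and 14.9%, and both were in 70.6% and 5.88%. The motifs do not overlap each other in the printed windows, and a match describes the letters, not a bound site. Among called members, Birc5, Nuf2 and Nusap1 held neither motif in these windows, Ccnb1 and Cenpe held CCAAT but not the homology letters, and Kif15 and Kif2c held the homology letters but not CCAAT. For Birc5, Kif2c and the printed Mki67, bases just after the start were not found early in any GENCODE vM21 transcript of the gene. The same held for Anln, Aurka, Cdca3, Kif11, Kif23, Mad2l1 and Smc2. The Kif2c window ends at 117179022, inside this minus-strand gene, which the count table ends at 117182639. Motifs in such windows may not describe the promoter in use.

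Of the regulators of entry into and exit from mitosis 6 of 8 rose, with a median log2 fold change of 0.87. Cdk1 (ENSMUSG00000019942, GRCm38 chromosome 10, 69336635 to 69352938), the kinase that drives mitosis, stood at 7.14, 7.72, 6.41 and 7.30 CPM in OMP_IGF1R 11, 12, 17 and 18, against 3.55, 3.73, 3.45 and 4.18 CPM in IGF1R_flfl 1, 2, 3 and 13. The lowest OMP_IGF1R library was above every IGF1R_flfl library, with a log2 ratio of 0.94 (SE 0.116, edgeR adjusted p = 0.00384). Its partner Ccnb1, cyclin B1, stood at 9.54, 8.29, 6.99 and 9.91 CPM in OMP_IGF1R, against 4.38, 4.50, 4.36 and 4.86 CPM in IGF1R_flfl, in the same library order, which is kept below. Cyclin B2, Ccnb2, had 4.59, 4.86, 3.58 and 4.8 CPM in OMP_IGF1R, against 2.68, 2.32, 2.34 and 1.91 CPM in IGF1R_flfl. The cyclin B pair had the same log2 fold change, 0.94 (SE 0.131 and 0.159, edgeR adjusted p = 0.0054 and 0.0101). Cdca3, which helps to remove the inhibitory kinase Wee1, ranged from 7.39 to 11.4 CPM in OMP_IGF1R (11.4, 7.39, 7.79 and 9.02) and from 4.81 to 5.47 CPM in IGF1R_flfl (4.997, 5.11, 5.47 and 4.81), with a log2 ratio of 0.80 (SE 0.147, edgeR adjusted p = 0.0131). Ccna2, cyclin A2, which also acts in DNA replication, averaged 17.4 ± 1.48 CPM in OMP_IGF1R and 12.98 ± 0.778 CPM in IGF1R_flfl (log2 0.42), and Cdc20, the activator of the anaphase-promoting complex, averaged 6.70 ± 0.763 CPM in OMP_IGF1R and 3.98 ± 0.741 CPM in IGF1R_flfl (log2 0.75). Ccna2 was not called without OMP_IGF1R 11, 12 or 18 or IGF1R_flfl 1 (edgeR adjusted p = 0.0506 to 0.0722), nor Cdc20 without OMP_IGF1R 11, 12 or 18 or IGF1R_flfl 3 (0.0516 to 0.0712). Foxm1, the transcription factor that switches on many genes of this set, was not called: it had 10.5, 10.2, 7.65 and 9.18 CPM in OMP_IGF1R, against 8.40, 5.98, 8.45 and 6.99 CPM in IGF1R_flfl. Its groups overlapped, and the log2 fold change of 0.33 had a 95% interval of 0.00 to 0.66 (edgeR adjusted p = 0.213).

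Ube2c, the ubiquitin-conjugating enzyme of the anaphase-promoting complex, had a value in OMP_IGF1R 17 that stood apart. It was at 8.32, 6.67, 51.8 and 7.33 CPM in OMP_IGF1R, against 3.37, 3.92, 3.49 and 3.59 CPM in IGF1R_flfl, and was not called with all libraries (log2 2.36, SE 0.669, edgeR adjusted p = 0.062). Without OMP_IGF1R 17 it rose (log2 1.06, SE 0.131, edgeR adjusted p = 0.00652). In the GENCODE vM21 annotation 592 bases of its exons are shared, on the other strand, with Tnnc2, a troponin of fast skeletal muscle. Tnnc2 stood at 47.6 CPM in OMP_IGF1R 17 and at 0.113 to 0.269 CPM in the other OMP_IGF1R libraries, against 0 to 0.114 CPM in IGF1R_flfl. The library high for Ube2c was thus the library high for Tnnc2 and for the muscle markers, and whether reads of Tnnc2 were counted for Ube2c was not tested.

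Of the Aurora and polo-like kinases and the chromosomal passenger complex 6 of 7 members rose (median log2 0.75). Tpx2, which activates Aurora A on the spindle, stood at 10.8, 10.02, 8.67 and 10.4 CPM in OMP_IGF1R, against 6.16, 5.07, 5.15 and 5.54 CPM in IGF1R_flfl (log2 0.86, SE 0.112, edgeR adjusted p = 0.00458). Plk1, polo-like kinase, stood at 6.28, 5.84, 4.999 and 5.53 CPM in OMP_IGF1R, against 3.51, 2.74, 2.89 and 3.50 CPM in IGF1R_flfl (log2 0.84). In both genes OMP_IGF1R 17 was the lowest of its group and still above every IGF1R_flfl library. Within the passenger complex, which corrects faulty attachments at the centromere, the catalytic subunit Aurkb had 3.93, 4.14, 2.61 and 3.53 CPM in OMP_IGF1R, against 2.14, 1.56, 1.67 and 1.54 CPM in IGF1R_flfl (log2 1.04, SE 0.193, edgeR adjusted p = 0.0136). Cdca8, the subunit borealin, had 7.19, 8.33, 6.41 and 7.56 CPM in OMP_IGF1R, against 3.95, 4.34, 4.56 and 4.68 CPM in IGF1R_flfl (log2 0.75). Birc5, the subunit survivin, averaged 3.46 ± 0.311 CPM in OMP_IGF1R and 2.28 ± 0.166 CPM in IGF1R_flfl (log2 0.60), and the scaffold Incenp 10.9 ± 0.192 and 8.52 ± 0.541 CPM in the same order (log2 0.35). All 4 subunits rose, with estimates from 0.35 to 1.04. Incenp was not called when any library other than IGF1R_flfl 13 was left out (edgeR adjusted p = 0.0563 to 0.107), nor Birc5 without OMP_IGF1R 12, 17 or 18 or IGF1R_flfl 1 or 3 (0.0577 to 0.0928). Aurka, the kinase of spindle poles, just missed the threshold with all libraries: it had 6.02, 8.59, 7.43 and 7.37 CPM in OMP_IGF1R, against 5.47, 4.23, 5.71 and 5.09 CPM in IGF1R_flfl, with no overlap and a log2 fold change of 0.52 (95% interval 0.20 to 0.84, edgeR adjusted p = 0.0557).

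Of the spindle checkpoint, which delays anaphase, 3 of 4 members rose (median log2 0.86). Bub1b, an inhibitor of the anaphase-promoting complex, stood at 10, 8.33, 8.67 and 9.98 CPM in OMP_IGF1R, against 4.78, 4.69, 6.23 and 5.22 CPM in IGF1R_flfl (log2 0.82, SE 0.127, edgeR adjusted p = 0.00761). Bub1, a kinetochore kinase, had 2.76, 3.43, 2.39 and 3.46 CPM in OMP_IGF1R, against 1.52, 1.37, 1.94 and 1.64 CPM in IGF1R_flfl (log2 0.90). The checkpoint kinase Ttk was the least abundant member in counts, with as few as 16 reads in a library, and averaged 1.68 ± 0.333 CPM in OMP_IGF1R and 0.805 ± 0.187 CPM in IGF1R_flfl (log2 1.05). Ttk was not called without OMP_IGF1R 11, 12 or 18 or IGF1R_flfl 3 or 13 (edgeR adjusted p = 0.0587 to 0.0825), nor Bub1 without OMP_IGF1R 12 or 18 or IGF1R_flfl 1 (0.0549 to 0.0696). Mad2l1, the checkpoint protein that binds Cdc20, was not called: it had 11.4, 11.5, 11.4 and 10.98 CPM in OMP_IGF1R, against 9.23, 10.4, 7.89 and 10.5 CPM in IGF1R_flfl. The groups did not overlap, but the log2 fold change was 0.25 with a 95% interval of 0.01 to 0.49 (edgeR adjusted p = 0.191).

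Of the centromere and kinetochore genes 4 of 5 rose (median log2 0.71). Cenpf, a large protein of the outer kinetochore, stood at 15.1, 14.9, 11.1 and 15.3 CPM in OMP_IGF1R, against 8.55, 7.32, 7.14 and 8.22 CPM in IGF1R_flfl (log2 0.85, SE 0.124, edgeR adjusted p = 0.00627). Cenpe, a kinesin that moves chromosomes to the spindle equator, stood at 11.4, 10.7, 11.8 and 11.9 CPM in OMP_IGF1R, against 7.97, 6.25, 7.49 and 6.18 CPM in IGF1R_flfl (log2 0.71). Here OMP_IGF1R 17 was low for Cenpf and not for Cenpe. Nuf2 and Ndc80 are partners in the complex that grips microtubules. Nuf2 had 4.18, 3.58, 2.74 and 3.76 CPM in OMP_IGF1R, against 2.10, 2.02, 1.78 and 1.77 CPM in IGF1R_flfl (log2 0.89, SE 0.167, edgeR adjusted p = 0.0142) and missed the threshold without OMP_IGF1R 18 (0.0508). Ndc80 had 3.21, 2.11, 2.26 and 2.50 CPM in OMP_IGF1R, against 1.92, 1.68, 1.59 and 1.18 CPM in IGF1R_flfl, which was not called (log2 0.65, 95% interval 0.19 to 1.11, edgeR adjusted p = 0.0869). The 95% interval of Nuf2 was 0.52 to 1.27, and a difference between Ndc80 and Nuf2 was not tested. Cenpa, the histone H3 variant of centromeres, averaged 5.45 ± 0.548 CPM in OMP_IGF1R and 3.51 ± 0.597 CPM in IGF1R_flfl (log2 0.63), and was not called when any library other than OMP_IGF1R 17 or IGF1R_flfl 1 was left out (edgeR adjusted p = 0.0501 to 0.0976).

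All 5 spindle motors and microtubule binders rose (median log2 0.61). Kif11, the motor that pushes the spindle poles apart, stood at 11.7, 11.1, 9.33 and 11.9 CPM in OMP_IGF1R, against 8.003, 7.13, 7.34 and 6.27 CPM in IGF1R_flfl (log2 0.61, SE 0.116, edgeR adjusted p = 0.0146). Kif4, a chromosome-bound kinesin on the X chromosome, stood at 7.09, 6.97, 5.75 and 6.91 CPM in OMP_IGF1R, against 4.60, 4.19, 3.81 and 4.86 CPM in IGF1R_flfl (log2 0.61). Nusap1, a protein that bundles spindle microtubules, had 7.76, 8.82, 6.90 and 10.3 CPM in OMP_IGF1R, against 5.18, 5.87, 5.39 and 4.54 CPM in IGF1R_flfl (log2 0.69). In all 3 the OMP_IGF1R libraries were the higher ones without exception. Kif2c, which takes microtubules apart at centromeres, averaged 4.05 ± 0.762 CPM in OMP_IGF1R and 2.38 ± 0.145 CPM in IGF1R_flfl (log2 0.77). Kif15, a motor that works beside Kif11, averaged 6.19 ± 0.432 CPM in OMP_IGF1R and 4.37 ± 0.349 CPM in IGF1R_flfl (log2 0.50). Each of the 5 lost its call without OMP_IGF1R 18. Kif11 lost it there alone (edgeR adjusted p = 0.0534), Kif4 also without OMP_IGF1R 11 or 12 (0.056 to 0.0659), Kif2c without these or IGF1R_flfl 1 (0.0579 to 0.0744), Kif15 without these or IGF1R_flfl 1 or 13 (0.0578 to 0.0958), and Nusap1 without OMP_IGF1R 12 or IGF1R_flfl 1 or 13 (0.0515 to 0.0691).

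Genes of the spindle midzone and of cytokinesis were the role with the smallest median, 0.33, and 3 of 5 rose. Kif23, a motor of the centralspindlin complex, stood at 5.20, 5.54, 3.98 and 5.18 CPM in OMP_IGF1R, against 3.04, 2.78, 2.82 and 3.09 CPM in IGF1R_flfl (log2 0.76, SE 0.138, edgeR adjusted p = 0.0127). Its partner Racgap1 had 37.3, 30.9, 30.8 and 32.8 CPM in OMP_IGF1R, against 26.7, 24.7, 28.9 and 24.7 CPM in IGF1R_flfl (log2 0.33, SE 0.0808, edgeR adjusted p = 0.0393). The 95% intervals were 0.45 to 1.07 for Kif23 and 0.14 to 0.51 for Racgap1, and a difference between these genes was not tested. Racgap1 was not called when any library other than OMP_IGF1R 17 or IGF1R_flfl 3 was left out (edgeR adjusted p = 0.0581 to 0.101). Kif20a, a midzone kinesin, had 16.2, 15.8, 17.96 and 18.5 CPM in OMP_IGF1R, against 11.6, 12.99, 13.5 and 13.6 CPM in IGF1R_flfl (log2 0.41, edgeR adjusted p = 0.0241), and was not called without OMP_IGF1R 17 or 18 or IGF1R_flfl 1 (0.0523 to 0.0838). Prc1, which cross-links midzone microtubules, was not called: it had 15.4, 13.8, 13.9 and 14.9 CPM in OMP_IGF1R, against 13.1, 10.6, 12.6 and 11.9 CPM in IGF1R_flfl (log2 0.27, 95% interval 0.06 to 0.47, edgeR adjusted p = 0.115).

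Anln, anillin, a scaffold of the cleavage furrow that oligodendrocytes also make, had the only negative estimate among the members. It stood at 6.68, 7.57, 6.37 and 8.52 CPM in OMP_IGF1R, against 4.45, 19.7, 4.44 and 4.72 CPM in IGF1R_flfl, a log2 fold change of -0.19 (95% interval -1.26 to 0.87, edgeR adjusted p = 0.848). The high value was in IGF1R_flfl 2, the library in which bulb and oligodendrocyte markers summed to 2003 CPM. Without that library Anln rose (log2 0.70, SE 0.135, edgeR adjusted p = 0.0161), with no overlap between the 4 OMP_IGF1R and the 3 remaining IGF1R_flfl libraries.

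**Figure D3:**
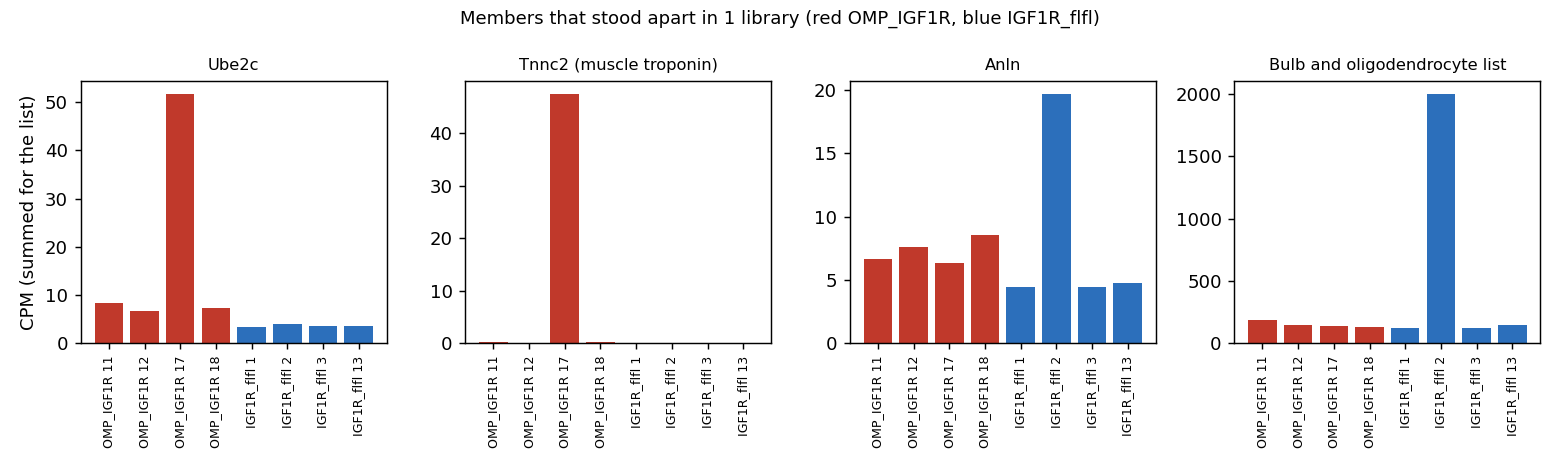
CPM in every library of Ube2c, of Tnnc2 (a muscle troponin on the other strand of the same locus), of Anln, and summed CPM of the 10 bulb and oligodendrocyte markers, with OMP_IGF1R in red and IGF1R_flfl in blue; each panel has its own axis from 0. Ube2c and Tnnc2 are both high in OMP_IGF1R 17 (51.8 and 47.6 CPM), and Anln and the marker sum are both high in IGF1R_flfl 2 (19.7 and 2003 CPM).

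Of the genes of chromosome structure and condensation 5 of 6 rose (median log2 0.62). Top2a (ENSMUSG00000020914, chromosome 11, 98992943 to 99024189), the topoisomerase that untangles sister chromatids, stood at 39.3, 36.4, 28.9 and 36.3 CPM in OMP_IGF1R, against 20.6, 15.4, 17.9 and 19.9 CPM in IGF1R_flfl (log2 0.93, SE 0.116, edgeR adjusted p = 0.00396). Mki67 (ENSMUSG00000031004, chromosome 7, 135689788 to 135716379), the coat protein of mitotic chromosomes known as Ki-67 and the usual marker of dividing cells, stood at 30.6, 30.7, 22.1 and 30.1 CPM in OMP_IGF1R, against 17.5, 15.4, 13.6 and 14.9 CPM in IGF1R_flfl (log2 0.89, SE 0.121, edgeR adjusted p = 0.00513). Both were lowest within their group in OMP_IGF1R 17. Ncapg, a subunit of condensin I, had 6.79, 6.59, 6.55 and 6.53 CPM in OMP_IGF1R, against 4.24, 3.85, 3.73 and 3.997 CPM in IGF1R_flfl (log2 0.74, SE 0.102, edgeR adjusted p = 0.00514). Ncapd2, of the same complex, averaged 40.5 ± 3.87 CPM in OMP_IGF1R and 28.6 ± 3.99 CPM in IGF1R_flfl (log2 0.50). The ATPases Smc2 and Smc4, which condensin I and condensin II share, had smaller estimates. Smc4 averaged 35.3 ± 2.12 CPM in OMP_IGF1R and 27.4 ± 2.39 CPM in IGF1R_flfl (log2 0.37). Smc2 was not called: it had 14.8, 18.2, 13.8 and 15.8 CPM in OMP_IGF1R, against 12.3, 13.6, 10.6 and 10.5 CPM in IGF1R_flfl (log2 0.41, 95% interval 0.14 to 0.67, edgeR adjusted p = 0.0657). Without IGF1R_flfl 2 it was called (log2 0.50, edgeR adjusted p = 0.0328). Smc4 was not called without OMP_IGF1R 12 or 18 or IGF1R_flfl 1 (edgeR adjusted p = 0.0526 to 0.0699), nor Ncapd2 without OMP_IGF1R 11, 12 or 18 (0.0628 to 0.0733).

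How many members were called depended on which library was left out, and 0 were lower in each of these fits. With OMP_IGF1R 11, 12, 17 or 18 left out, 22, 18, 30 and 15 members were higher, beside 1.46%, 1.24%, 2.51% and 1.08% of all genes (2.68%, 2.26%, 4.22% and 2.17% lower). With IGF1R_flfl 1, 2, 3 or 13 left out, 22, 31, 27 and 27 were higher, beside 1.78%, 2.94%, 1.97% and 2.26% of all genes (3.03%, 5.52%, 3.08% and 4.22% lower). Without IGF1R_flfl 2 and OMP_IGF1R 17, the libraries in which markers of other tissues stood apart, 29 were higher, beside 2.62% of all genes (4.84% lower). Scaling by DESeq2's size factors left 32 higher (2.97% of all genes higher, 4.88% lower), by upper quartiles 33 (3.41% and 4.27%) and by raw totals 33 (4.46% and 3.12%). Without a filter beyond 1 count 32 were higher (1.95% of all genes, 3.58% lower), and with at least 1 CPM in 4 libraries 32 (3.17%, 5.89% lower). The 15 members that kept their call in all 8 fits without 1 library were Cdk1, Ccnb1, Ccnb2, Cdca3, Tpx2, Plk1, Aurkb, Cdca8, Bub1b, Cenpe, Cenpf, Kif23, Mki67, Top2a and Ncapg. Of the members not called, Aurka was called by DESeq2 (adjusted p = 0.0151) and by voom (adjusted p = 0.0305), and so was Smc2 (0.0176 and 0.0273), while Foxm1, Mad2l1, Ndc80, Prc1 and Anln were called by neither. Ube2c was not called by voom (adjusted p = 0.221), and DESeq2 gave it no adjusted p.

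Levels per length show which of these RNAs were abundant. Per kilobase of annotated exon, the highest members other than Ube2c in OMP_IGF1R were Smc4 (6.78 CPM per kilobase in OMP_IGF1R, 5.27 in IGF1R_flfl), Ncapd2 (6.47 and 4.56) and Racgap1 (4.65 and 3.71), and the lowest was Ttk (0.341 and 0.164). On the same scale Top2a had 3.91 CPM per kilobase in OMP_IGF1R and 2.05 in IGF1R_flfl, and Cdk1 had 1.45 and 0.756. The 3 highest had log2 fold changes of 0.50 or less, below the members' median of 0.73. Exon lengths join all annotated isoforms, so these levels are lower bounds for a gene with 1 main isoform.

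**Figure D4:**
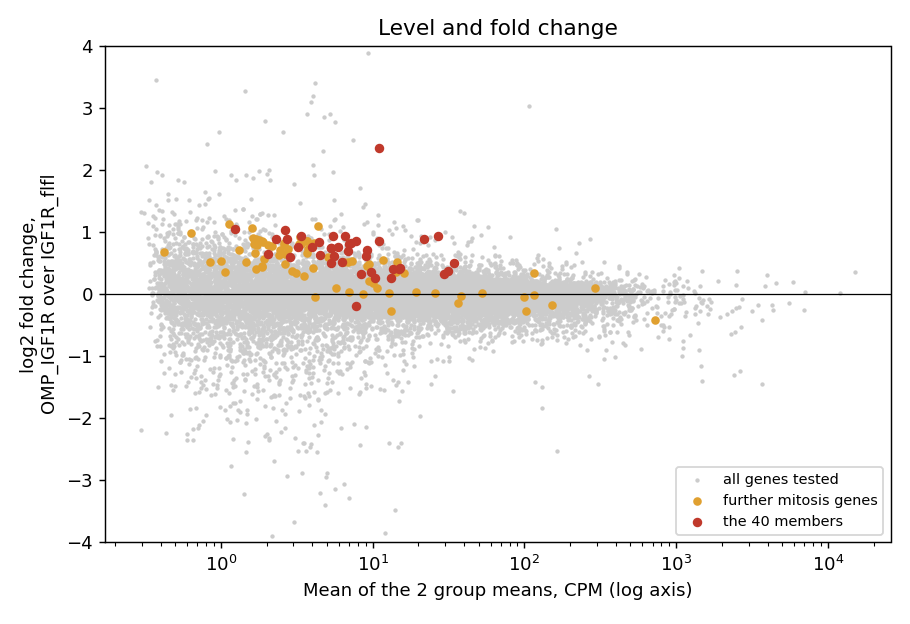
Log2 fold change, OMP_IGF1R over IGF1R_flfl, against the mean of both group means in CPM (log axis) for all genes tested (grey), the 77 further mitosis genes (orange) and the 40 members (red); 13 genes lie outside the vertical range of 4 either way. The members lie above 0 apart from Anln (-0.19), and Ube2c (2.36) is the highest of them.

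For 9 members, exons are overlapped on the other strand by exons of a protein-coding gene in GENCODE vM21, and the strand setting of the counting is not given in the sources used here. Beside Ube2c these are Ccna2 (510 bases with Exosc9), Kif20a (1271 with Cdc23), Prc1 (911 with Rccd1), Ncapg (944 with Lcorl), Kif4 (832 with Pdzd11), Cdca8 (232 with 9930104L06Rik), Nusap1 (172 with Oip5) and Cdc20 (53 with Elovl1). The overlapping genes other than Tnnc2 had log2 fold changes of 0.01 to 0.36 and none of these 8 was called by edgeR (adjusted p = 0.117 or more). Cdc23, the partner of Kif20a, averaged 62.6 ± 1.44 CPM in OMP_IGF1R and 59.3 ± 1.32 CPM in IGF1R_flfl. The 9 overlapped members had a median log2 fold change of 0.69 with 7 higher, and the other 31 a median of 0.76 with 25 higher. Those 31 are not free of overlap. On its own strand Foxm1 shares 144 bases with Tex52 and 97 with Gm44596, both protein-coding. Top2a (122 bases with Gm23451) and Ncapd2 (237 with Scarna10) overlap small RNA genes on their own strand. The effect of these overlaps on the counts was not tested. Named pseudogenes exist for Ccnb1, Ccnb2 and Kif4, so reads of these 3 may be split with a copy.

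Summed over the 40 members, expression was 477, 462.5, 452 and 474 CPM in OMP_IGF1R 11, 12, 17 and 18, against 317, 302, 301 and 299.7 CPM in IGF1R_flfl 1, 2, 3 and 13. The group means were 467 ± 11.4 CPM in OMP_IGF1R and 305 ± 7.93 CPM in IGF1R_flfl (SD, n = 4 each), a ratio of 1.53. Ube2c and Anln each had 1 library far above the rest. Without these genes the sums were 462, 448, 394 and 458 CPM in OMP_IGF1R, against 309, 278, 293 and 291 CPM in IGF1R_flfl, with a ratio of 1.505. In this sum, chosen after the values were seen, OMP_IGF1R 17 and IGF1R_flfl 2 were the lowest of their groups. The same showed gene by gene: OMP_IGF1R 17 was lowest of its group for 26 of 40 members, with a median deviation of -0.175 (log2) from the group mean, and IGF1R_flfl 2 was lowest of its group for 16. The median coefficient of variation of the members was 11.1% among OMP_IGF1R libraries and 10.2% among IGF1R_flfl libraries, beside 8.22% and 10.4% for all genes tested.

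**Figure D5:**
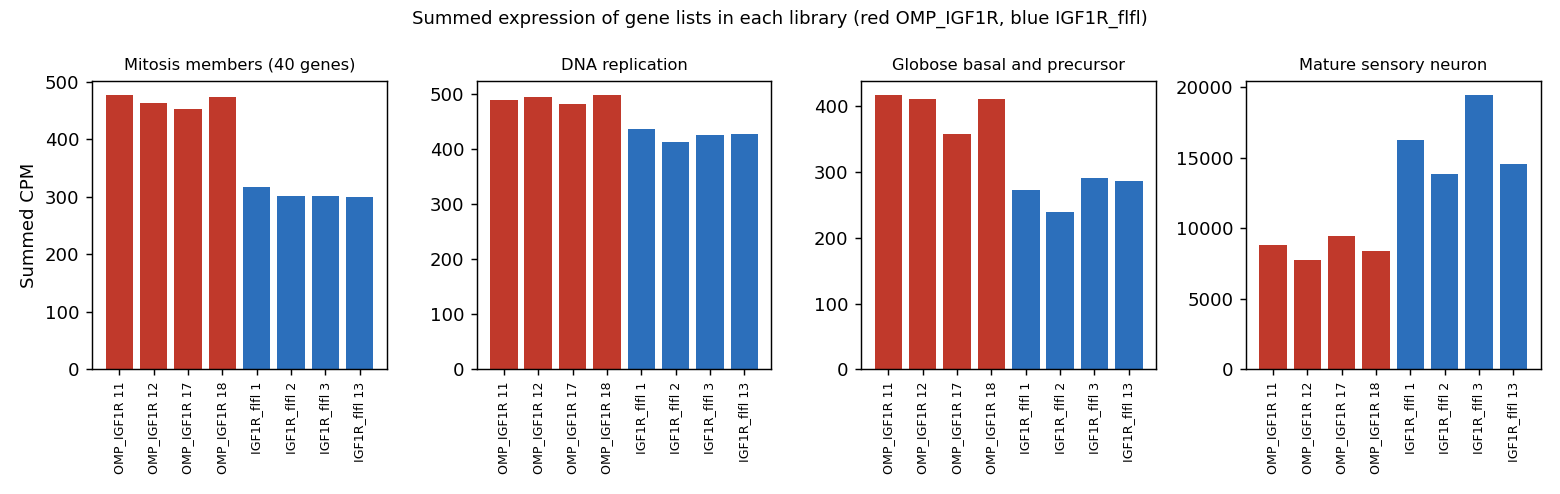
Summed CPM of the 40 members, of 33 DNA replication genes, of 10 globose basal and precursor markers and of 10 mature neuron markers in every library, OMP_IGF1R in red left of IGF1R_flfl in blue, each panel with its own axis from 0. The members stand at 452 to 477 CPM in OMP_IGF1R and at 299.7 to 317 CPM in IGF1R_flfl, and the mature neuron markers run the other way.

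Markers of some other cells moved with the members, and those of others did not. Over all genes tested, edgeR with all libraries called 2.83% higher and 5.37% lower. The sum of the 10 globose basal and precursor markers was 399.8 ± 27.8 CPM in OMP_IGF1R and 272 ± 23.3 CPM in IGF1R_flfl, and 8 of 10 rose (6 or 7 without OMP_IGF1R 11, 12 or 18 or IGF1R_flfl 1 or 3), among them Neurog1 (log2 1.19), a transcription factor of neuronal precursors. The exceptions were Lgr5 (0.06) and Sox2 (0.10). The median log2 fold change of the 10 was 0.69. For every 100 CPM of these markers the members had 117 ± 6.30 CPM in OMP_IGF1R and 113 ± 10.6 CPM in IGF1R_flfl, with overlap, a description with no test. Without Ube2c and Anln these were 110 ± 1.07 and 108 ± 7.90 CPM. Sox2, which was not called, was the largest part of the marker sum (103 CPM in OMP_IGF1R, 96.4 CPM in IGF1R_flfl). The ratio therefore leans on Sox2 and does not show that the members kept pace with the markers that rose. Of 8 immature neuron markers, the step after these precursors, 6 rose (median log2 0.90) in every fit without 1 library. All 10 mature neuron markers fell (median log2 -0.67; 9 fell without OMP_IGF1R 12 or 18). Omp, named in the titles, was the largest part of their sum (1969 CPM in OMP_IGF1R, 5386 CPM in IGF1R_flfl). It also fell most (log2 -1.45), and the others ran from -1.04 (Cnga4) to -0.42 (Rtp1). Horizontal basal markers made up 268 to 461 CPM in OMP_IGF1R, highest in replicate 17, against 205 to 247 CPM in IGF1R_flfl (median log2 0.43). By edgeR 1 of 6 was called higher with all libraries, 3 without OMP_IGF1R 17 and 0 without OMP_IGF1R 18. DESeq2 and voom each called 3 of these markers higher, and 4 had an unadjusted p under 0.05 in edgeR. Lymphocytes can divide too: 6 B and T cell markers had a sum of 6.19 to 8.25 CPM in OMP_IGF1R, against 2.66 to 5.65 CPM in IGF1R_flfl, and none was at 0 in all libraries. Their median log2 fold change was 0.65, close to that of the precursor markers. Cd79b (log2 0.90) was called, but not without OMP_IGF1R 11, 12, 17 or 18 or IGF1R_flfl 3 or 13 (edgeR adjusted p = 0.0556 to 0.11). The 7 macrophage markers had a sum of 140 to 158 CPM in OMP_IGF1R, against 109 to 146 CPM in IGF1R_flfl, with overlap (median log2 0.23). None was called by any of the 3 tools, and 2 had an unadjusted p under 0.05 in edgeR. The 7 markers of sustentacular (supporting) cells had a sum of 5930 to 6481 CPM in OMP_IGF1R, against 6087 to 7820 CPM in IGF1R_flfl. These sums overlapped, the median log2 fold change was -0.04, and none of these markers was called by any tool. The part of each cell type in the members' rise was not tested.

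Other genes of the pathway, from lists that hold none of the 40, are given by count. Beside these counts stand 2.83% higher and 5.37% lower of all genes tested by edgeR with all libraries. Of 77 further mitosis genes found (of 83 listed), 34 rose, 1 fell and 42 were not called, with a median log2 fold change of 0.52. The 4 risers with the smallest p were Aspm (1.10), a spindle pole protein that keeps progenitor divisions symmetric, Ncaph (0.86), another subunit of condensin I, D2Ertd750e (0.82), the older symbol of the kinetochore gene Knstrn, and Cks1b (0.54), a subunit of cyclin-dependent kinases. The gene that fell was Tubb4b (-0.42), an abundant tubulin, with 617 ± 42.7 CPM in OMP_IGF1R and 827 ± 108 CPM in IGF1R_flfl. The number that rose was 12 without OMP_IGF1R 11, 12 or 18, 15 without IGF1R_flfl 1 and 20 without IGF1R_flfl 3 (1.46%, 1.24%, 1.08%, 1.78% and 1.97% of all genes higher), and the call of Tubb4b was lost in each of these 5 fits.

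Of 33 DNA replication genes, 9 rose and 0 fell by edgeR, beside 2.83% of all genes higher and 5.37% lower. DESeq2 and voom likewise found 0 lower, and 16 higher and 0 lower had an unadjusted p under 0.05 in edgeR. The median log2 fold change of the list was 0.25. Uhrf1 (0.73), a factor of DNA methylation upkeep, Gins2 (0.38), and the helicase subunits Mcm2 (0.45) and Mcm7 (0.29) had the smallest p. The number that rose was 3 without OMP_IGF1R 11, 12 or 18, 4 without IGF1R_flfl 1 or 3, 5 without OMP_IGF1R 17 or IGF1R_flfl 13, and 6 without IGF1R_flfl 2. In the fits without 1 library 1.08% to 2.94% of all genes were higher. The call of Mcm7 was among those lost without OMP_IGF1R 11, 12 or 18 or IGF1R_flfl 1 (edgeR adjusted p = 0.056 to 0.0747). For every 100 CPM of the replication list the members had 97.55, 93.55, 93.74 and 95.22 CPM in OMP_IGF1R, against 72.45, 73.17, 70.8 and 70.29 CPM in IGF1R_flfl, and without Ube2c and Anln 81.7 to 94.5 CPM in OMP_IGF1R, against 67.4 to 70.7 CPM in IGF1R_flfl. Relative to the summed replication genes the members were thus higher in each OMP_IGF1R library than in any IGF1R_flfl library. That sum leans on its abundant genes. The most abundant were Gins2 (59.9 CPM in OMP_IGF1R, 46.2 CPM in IGF1R_flfl) and Pcna (56.4 and 54.8 CPM, log2 0.04, not called). Whether mitosis genes shifted against replication genes in general was not tested.

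Among 19 genes of the MuvB, E2F and Rb families, which govern the cell cycle's transcription, 2 rose and 0 fell (median log2 0.05). Over all genes tested, edgeR called 2.83% higher and 5.37% lower. The risers of this list were E2f2 (0.95) and E2f7 (0.62). E2f7 lost its call without OMP_IGF1R 11, 12 or 18 or IGF1R_flfl 1 (edgeR adjusted p = 0.0568 to 0.0872). Of 15 tested CDK inhibitors and genes of cell cycle exit, 5 rose and 0 fell (median 0.22). The 4 with the smallest p were Ccng2 (0.44), a cyclin linked to arrest, Cdkn1c (0.58) and Cdkn1a (0.27), the inhibitors p57 and p21, and Btg2 (0.47), an antiproliferative gene of neuronal precursors. In this list 2 rose without OMP_IGF1R 12 or 17 or IGF1R_flfl 13, and 3 without OMP_IGF1R 18 or IGF1R_flfl 1 or 3. Of all genes 1.08% to 2.94% were higher in the fits without 1 library. Ccng2 and Cdkn1c were called in all 8 fits without 1 library. In both lists DESeq2 and voom also called 0 lower, and at an unadjusted p under 0.05 there was 1 lower gene in the E2F list and 0 in the other. Of 23 tested subunits of the anaphase-promoting complex and of cohesin, which work in dividing and resting cells alike, edgeR called 0, DESeq2 1 and voom 0, with 1 at an unadjusted p under 0.05 and a median of 0.00.

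The authors' deposited table gave 34 of the 40 members a positive fold change and 0 a negative one at an adjusted p under 0.05, beside 4.93% positive among all its genes with an adjusted p. Ube2c and Anln had no adjusted p there, so they could not be called. Its log2 fold changes for the members ran from -0.05 to 0.84. They were smaller in size than edgeR's for every member, with Ube2c at 0.40 against 2.36 and Ttk at 0.58 against 1.05. The sizes are therefore not directly comparable. Its header does not name the direction; Omp, the olfactory marker protein of mature neurons, is at -1.28 in it and at -1.45 in edgeR, so the table was read as OMP_IGF1R over IGF1R_flfl.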

How the data were processed

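RNA of dissected olfactory epithelium was sequenced as stranded, poly(A)-selected paired reads, per the labels' protocols. The submitters' processing notes name the build GRCm38 (mm10) and the tools SAMtools 1.2, TopHat2 2.0.14, Trim Galore 0.3.7 and DESeq2. How reads were counted, and on which strand, is not given in the sources used here. The deposited table holds raw counts, 1 column per library; 8 further columns of standard deviations were not used. The authors' deposited comparison holds a mean normalized signal, log2 fold changes, a standard error and a test score, and p-values, per the file headers.

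The main test was edgeR's quasi-likelihood F-test (version 4.0.16, R 4.3.3) with TMM scaling, on the 17381 of 25913 genes that filterByExpr kept. P-values were adjusted over these by Benjamini-Hochberg, with a threshold of 0.05. CPM use TMM effective library sizes. Alternatives were other scalings and filters, DESeq2 1.42.0, limma 3.58.1 voom, and libraries left out. The fits were tested on simulated data, where DESeq2 made a larger share of false calls than edgeR or voom. In the simulation 200 of 17266 genes were changed, fewer than were called in the data. The share of false calls depends on how many genes change, so it cannot be carried over to these data. DESeq2 also called the largest share of all genes in the data. There edgeR recovered 39.4% of genes changed by a log2 of 0.5 and 76% of those changed by 1. A gene with a small change can therefore be missed. Pairs of libraries within a group differed beyond sampling noise (chi-square per gene 11.8 to 108.1 on average), so none was taken as a repeat deposit of the same library; whether any share an animal is not shown by this. Depth limits the precision of the least abundant members.

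The members, roles and lists were chosen with earlier results of these data known, so they are no independent support. In each role the smaller-p members, and all not called, are given by library; of other lists, up to 4 called genes per direction. Proteins planned for the cyclin B pair are not shown.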

Additional observations from a re-analysis of the deposited data

Results flagged for a closer look

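Of the 80 sets of 4 libraries examined (40 members in 2 groups), 6 had a library far from the other 3, where chance marks about 1 in 20, or 4. In the OMP_IGF1R group, replicate 17 was high for Ube2c (51.8 CPM, the others 6.67 to 8.32) and low for Cenpf (11.1 CPM, the others 14.9 to 15.3), Kif4 (5.75 CPM, the others 6.91 to 7.09) and Mki67 (22.1 CPM, the others 30.1 to 30.7). Replicate 18 was high for Kif15 (6.84 CPM, the others 5.93 to 6.03). In the IGF1R_flfl group, replicate 2 was high for Anln (19.7 CPM, the others 4.44 to 4.72). Cenpf and Mki67 were called higher in every fit without 1 library, and Kif4 and Kif15 were not. Muscle markers summed to 547.7 CPM in OMP_IGF1R 17 and bulb and oligodendrocyte markers to 2003 CPM in IGF1R_flfl 2, and their part in these values was not tested.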

How the results depend on the processing

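The number of members called higher was 32 to 34 with other scalings, filters or tools, 29 without IGF1R_flfl 2 and OMP_IGF1R 17 together, and 15 to 31 with 1 library left out; 0 were lower in every fit. The median log2 fold change ran from 0.68 to 0.77 with 1 library left out. Of the 32 called members, 15 kept the call in all 16 alternatives. Anln (-0.19) alone changed sign, to 0.41 by voom and 0.76 without IGF1R_flfl 2 and OMP_IGF1R 17; with 1 library left out it ran from -0.40 to 0.70, the value without IGF1R_flfl 2. Further mitosis genes called higher numbered 12 to 30 with 1 library left out, and those called lower 0 to 1, with 0 on raw library totals and 2 by DESeq2. The summed CPM without Ube2c and Anln was 441 in OMP_IGF1R and 293 in IGF1R_flfl. On raw library totals 775 of all genes were higher and 542 lower, beside 492 and 933 with TMM. The cause of these shifts was not tested. No paired analysis was possible because the groups share no replicate number.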
